A study of Mus musculus with 4 samples.

Results

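Opposite-strand transcripts are RNAs read from the DNA strand opposite to a named gene, and in mouse nomenclature they carry the symbol of that gene, here called the host, followed by os. Many are long noncoding RNAs whose start lies close to that of the host, because promoters often fire in both directions, while others start inside the host or run into its end, and a few encode proteins of their own. Such transcripts are known to act on their host in some cases, by interfering with its transcription or by recruiting chromatin proteins, and in many cases no role is known. The transcripts described here are all rows whose symbol ends in os, os1, os2 or os3 and whose symbol without that ending belongs to another row. The rule found 296 transcripts with 293 symbols and 253 distinct hosts, among 54838 named genes in the files.

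The libraries came from Hepa1-6, a mouse hepatoma cell line. Both groups of 2 libraries carried an shRNA. In the control it was labelled NC, with Setdb1 given as wild type, and in the knockdown it was directed against Setdb1, a histone H3 lysine 9 methyltransferase known for silencing retroelements. The series describes the compared cells as subclones, so differences between subclones and effects of the knockdown cannot be told apart, and the labels state no vector, shRNA sequence, time or culture. The labels do not say whether libraries of a group came from separate cultures, so the spread behind the p-values is that of these libraries alone and may be technical.

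Each library held between 19513445 and 19615277 expected counts. Setdb1 stood at 51.5 and 58.5 CPM (counts scaled to library size, with TMM factors) in the control libraries and at 10.97 and 8.665 CPM in the knockdown libraries, which do not overlap (edgeR log2 fold change -2.48, SE 0.182, adjusted p = 0.00015). Of 9 hepatocyte or hepatoma markers 7 reached a mean of 1 TPM (a level scaled to transcript length and depth), with sums of 3130 to 3400 TPM in the control and 3240 to 3520 TPM in the knockdown, while Ttr and Apoa1 stayed below 1 TPM in every library. Alb and Gpc3 were called higher with the knockdown, and Apob and Hnf4a lower. Of the markers of other cell types Epcam (bile duct, 11.1 and 9.3 TPM in the control, 20.6 and 20.58 TPM in the knockdown) and Col1a1 (fibroblasts, under 1 TPM in every library) were called higher, and 0 were called lower. Of 6 blood and immune markers 1 was at 0 in all libraries and Cd68 alone had a mean above 1 TPM, and the list summed to 9.3 and 9.59 TPM in the control and 12.9 and 15.6 TPM in the knockdown. Within this list Cd68 stood higher with the knockdown (7.96 and 8.02 TPM in the control, 15.13 and 12.25 TPM with it). Lyz2 stood lower (1.46 and 1.23 TPM in the control, 0.3 and 0.48 TPM with the knockdown), and neither was called. The fibroblast list summed to 1230 to 1370 TPM, nearly all of it Dcn, with Lrat at 0. The 4 endothelial markers summed to under 1 TPM in every library, higher in both knockdown libraries (0.89 and 0.45) than in the controls (0.21 and 0.18), and the 4 bile duct markers to 31.9 and 32.8 TPM in the control and 39.3 and 40.5 TPM in the knockdown, in which Sox9 stood lower (19.28 in both controls, 13.77 and 14.82 with the knockdown, not called). The part of these markers in the following results was not tested, and in bulk RNA fewer cells of a type and less RNA per cell cannot be told apart.

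For most opposite-strand transcripts no read was found in these cells, as for most named genes. By rounded counts 135 of the 296 transcripts had reads, and 21511 of all 54838 named genes. No read was assigned to 159 of the 296 in any library, 137 had reads in at least 1 library, and 40 passed the filter for testing (edgeR's filterByExpr, about 0.511 CPM before TMM scaling in at least 2 libraries). All 296 lie on the strand opposite to their host in the GENCODE annotation, and 253 of them are annotated as antisense RNA. Another 13 are processed transcripts, 11 are intergenic RNAs and 11 are protein-coding. By position, 122 lie inside the span of the host and 83 overlap the host at its start, head to head. A further 42 are divergent, with starts pointing away from each other and no overlap (median distance of the starts 165.5 bp), and 28 overlap the end of the host, tail to tail. The remaining 12 are convergent without overlap and 9 contain the whole host. Of the tested transcripts 16 overlap the host at its start, 8 are divergent, 8 lie inside the host, 5 overlap its end and 3 are convergent.

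**Figure D1:**
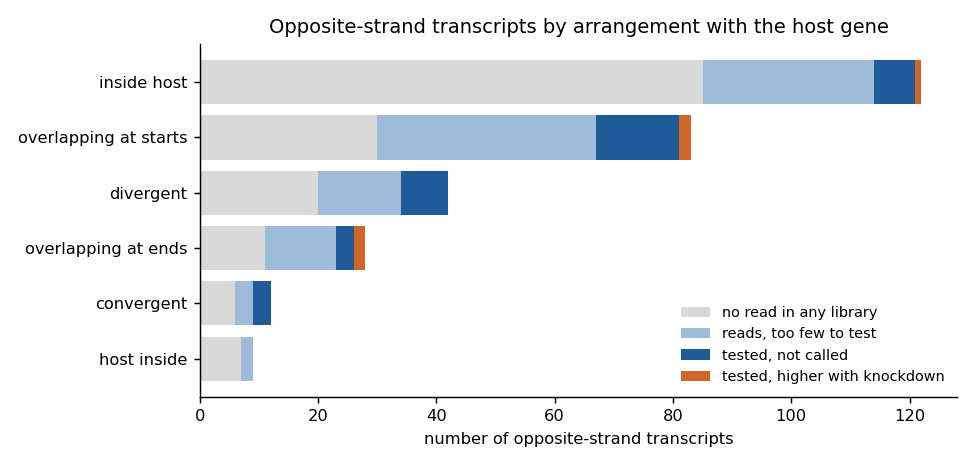
Number of opposite-strand transcripts (horizontal axis) for each arrangement with the host gene (rows), split into those with no read in any of the 4 libraries, those with too few reads to test, those tested and not called, and those called higher with the Setdb1 knockdown. The largest class, 122 transcripts inside their host, holds 8 tested transcripts, and 0 of the 8 tested divergent transcripts were called.

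With the knockdown 5 of the 40 tested transcripts rose at an adjusted p under 0.05 (edgeR quasi-likelihood test, adjusted over all 12821 genes tested) and 0 fell. They were Notumos, Slc13a2os, Dnah2os, Rab10os and Igf2os, 12.5% of those tested, where 4.20% of all genes tested rose and 1.76% fell. At an unadjusted p under 0.05 there were 10 higher and 1 lower, without a count over all genes to set beside them. DESeq2 called 4 higher and 0 lower, where it called 896 of the 12821 genes in either direction. With limma on log2(TPM + 1) 2 were called higher and 1 lower, where 334 of the 12821 genes were called in either direction. Of the 40, 28 had a fold change above 0 (70%, against 49.5% of all genes tested), and the median log2 fold change was 0.277, against -0.00519 over all genes tested. The CPM values of the groups did not overlap in 21 transcripts, 17 with the knockdown higher and 4 with it lower, where 26.4% and 25.2% of all genes tested did so in these directions. These counts describe the transcripts that passed the filter and are no evidence on the others: 3 of the 40 (Slc13a2os, Igf2os and Tbx3os1) were under the filter's minimum in both control libraries and passed through the knockdown libraries alone, and 1 passed through the controls alone. Without a filter on low counts edgeR called 0 of 21511 genes, so the transcript and host calls were all lost. In that fit 18 of 135 opposite-strand transcripts and 39 of 200 hosts had an unadjusted p under 0.05. The share over all genes at that cutoff was not counted.

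The tested transcripts were scarce, with a median of 1.82 CPM (range 0.373 to 53.6 CPM), and their fold changes had a median SE of 0.368, against 0.189 for their hosts. Of 2879 other tested genes with a mean under 5 CPM, 6.95% were called higher and 0.938% lower, with a median log2 fold change of 0.0882. Among the 30 tested opposite-strand transcripts under 5 CPM, 4 were called higher. They include Slc13a2os and Igf2os, which passed the filter through the knockdown libraries alone. Other genes annotated as antisense had 171 members tested, of which 5 rose (2.92%) and 0 fell in edgeR (5 lower at an unadjusted p under 0.05, and 0 with DESeq2 or limma), with a median log2 fold change of 0.0367. Of 272 other tested genes annotated as intergenic RNA, 18 rose (6.62%) and 2 fell (0.735%), with a median log2 fold change of 0.169. The differences between these shares were not tested.

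**Figure D2:**
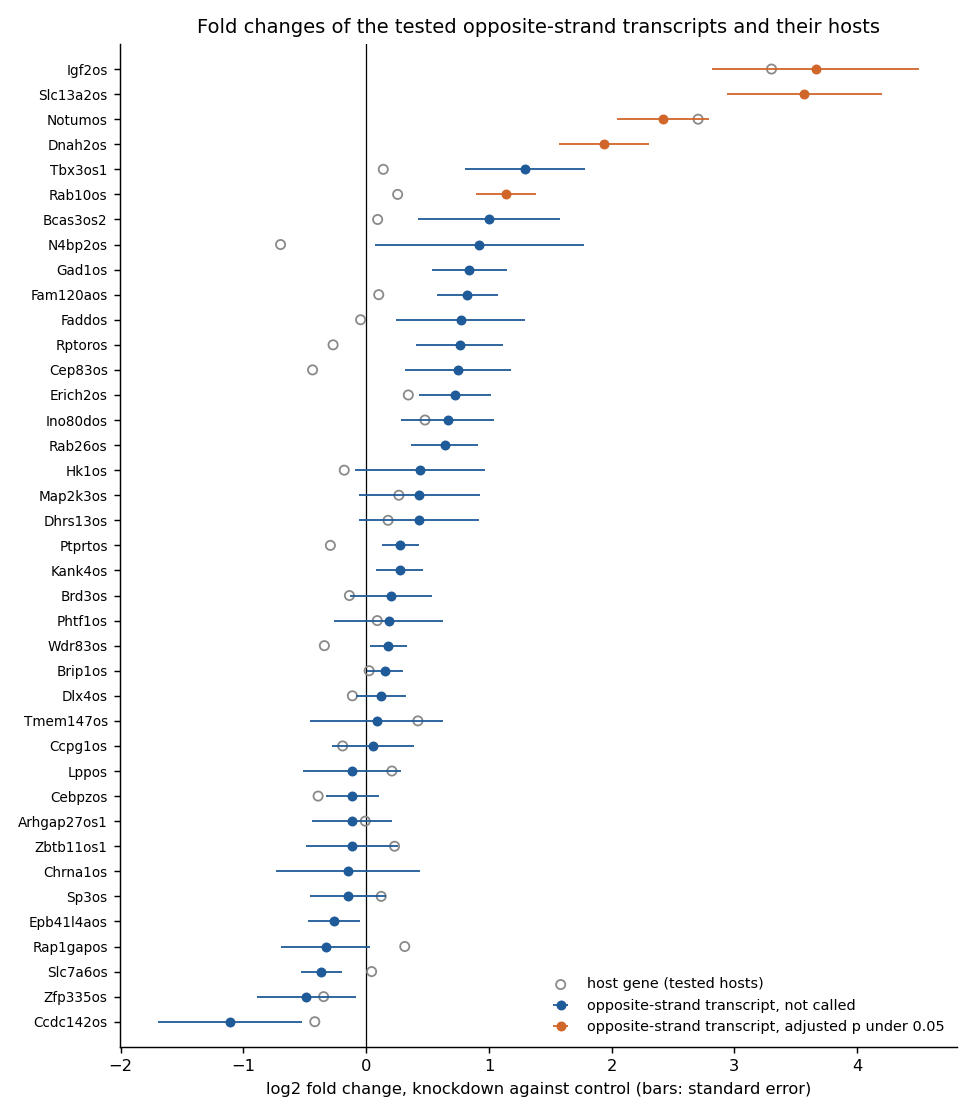
Log2 fold change, knockdown against control (horizontal axis), of 39 of the 40 tested opposite-strand transcripts (rows, filled points with standard errors; orange where the adjusted p is under 0.05) and of their hosts where these were tested (open circles). The 5 called transcripts lie between 1.14 and 3.66, and 28 of the 39 lie above 0.

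Whether a transcript and its host can be told apart depends on how reads from the 2 strands were assigned. RSEM divides a read that fits several annotated transcripts among them, which leaves counts that are not whole numbers. In the 163 pairs whose exons overlap, 253 library values of the transcript held reads, and 85 of them (33.6%) were not whole within 0.005. In 77 of those the count of the host was not whole either, and in 53 the sum of both was whole. In the 133 pairs without exon overlap 9 of 157 such values (5.73%) were not whole, and in 0 was the count of the host fractional as well. In some of the overlapping pairs, reads were thus divided between genes on opposite strands, although the library kit named in the labels marks strand. How strand was set in the counting is not given in the sources used here. Of the 40 tested transcripts 26 had whole counts in all 4 libraries, and 3 of these were called higher (Slc13a2os, Dnah2os and Rab10os). The other 14 had a fractional count in at least 1 library, and 2 of them were called (Notumos and Igf2os). A whole count gives no sign of a divided read. It does not show that the reads fit 1 gene alone, or which strand they came from.

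Notumos and its host rose together. Notum is a secreted carboxylesterase that removes the lipid from Wnt proteins and so inactivates them. Notumos (chr11:120659157-120661815, plus strand, GRCm38; 1 exon) is antisense RNA over the first exons of Notum (chr11:120653788-120661175, minus strand), with starts 2018 bp apart and 708 of its 2659 bases (26.6%) opposite to exons of Notum. In control 1, control 2, knockdown 1 and knockdown 2, the order in which sets of 4 values are given from here on, Notumos had 14.2, 9.34, 54.64 and 67.57 expected counts. Both knockdown libraries lay above both controls, and the mean went from 0.600 ± 0.182 to 3.14 ± 0.493 CPM (SD, n = 2 per group; edgeR log2 fold change 2.42, SE 0.374, adjusted p = 0.00602). Notum had 77.8, 65.66, 541.36 and 392.43 counts and went from 3.65 ± 0.480 to 23.9 ± 5.22 CPM, a log2 fold change of 2.70 (SE 0.238, adjusted p = 0.000330). The counts of both were fractional in all 4 libraries and their sums were whole, at 92, 75, 596 and 460. Reads were therefore divided between the strands at this locus, and the share of the rise of Notumos that such reads make up was not tested. The log2 ratio of Notumos to Notum was -2.41, -2.75, -3.30 and -2.53, with overlapping groups. The following stretches show where the overlap ends: the 60 bases in capitals are shared, as complements, by Notumos and a coding exon of Notum, and the 30 bases in lower case belong to only 1 of them, the next exon in the case of Notum. A read confined to the capitals fits both genes if strand is ignored. Both are read 5′ to 3′ from GENCODE M21, Notumos at chr11:120659965-120660054 (plus strand) and the Notum capitals at chr11:120659995-120660054 (minus strand).
Notumos: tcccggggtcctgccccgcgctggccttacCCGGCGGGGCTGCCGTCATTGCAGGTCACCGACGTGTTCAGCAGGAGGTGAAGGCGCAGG
Notum: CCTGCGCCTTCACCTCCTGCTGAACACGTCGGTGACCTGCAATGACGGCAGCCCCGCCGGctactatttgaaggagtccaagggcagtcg

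Igf2os and Igf2 were the other pair in which both rose. Igf2 is an imprinted fetal growth factor. Igf2os (chr7:142659693-142670356, plus strand) is an antisense RNA that overlaps the host (chr7:142650766-142666816, minus strand) at its start, with 98 of its 5337 exonic bases opposite to Igf2 exons and 1142 opposite to exons of the predicted gene Gm49394. It had 0, 2.21, 13.63 and 13.79 counts, so that control 1 held none, both controls together about 2 and each knockdown library about 14. Igf2os passed the filter through the knockdown libraries alone, so its call is not independent of that selection. The ratio of summed counts was 14.0 (exact 95% binomial interval 3.52 to 121, counting error only). On the edgeR fit the log2 fold change was 3.66 (SE 0.846, adjusted p = 0.0307), and it was 2.75 without control 1 and 6.82 without control 2. The host had 55.33, 49.71, 593.39 and 437.47 counts and rose from 2.67 ± 0.234 to 26.4 ± 5.45 CPM, a log2 fold change of 3.30 (SE 0.239, adjusted p = 0.000150). The counts of Igf2os, Igf2 and Gm49394 summed to whole numbers in every library (111, 77, 683 and 534), while Igf2os was fractional in 3 of them, so reads were divided here too. On the TPM scale, per effective length, the transcript stood at 0, 0.19, 0.19 and 0.19 TPM and its groups overlapped, while the effective length that RSEM estimated went from 1656 and 746.1 bp in the control to 4514 and 4516 bp in the knockdown libraries. The adjusted p of Igf2os was 0.115 with DESeq2 and 0.633 with limma on log2(TPM + 1), so its call depends on the tool. Gm49394 had 55.67, 25.08, 75.98 and 82.74 counts and was not called (log2 fold change 0.98, adjusted p = 0.149).

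Slc13a2os rose while its host gave almost no reads. Slc13a2 is a sodium-coupled transporter of dicarboxylates such as succinate and citrate. Slc13a2os (chr11:78394485-78405657, plus strand) overlaps the end of its host (chr11:78397087-78422217, minus strand), with 632 of its 3627 exonic bases opposite to exons. It had 2, 1, 20 and 18 counts, all whole, and the host had 0, 0, 0 and 1. The groups of the transcript do not overlap, on 41 reads in all. It passed the filter through the knockdown libraries alone, so its call is not independent of that selection. The ratio of summed counts was 12.6 (exact 95% interval 4.01 to 64.0, counting error only). The edgeR log2 fold change was 3.57 (SE 0.632, adjusted p = 0.0101). The adjusted p was 0.0479 with DESeq2, and limma on log2(TPM + 1) did not call it (0.40, adjusted p = 0.135). Foxn1, the nearest gene that starts on the opposite strand, lies 7927 bp away and had 1, 1, 4 and 5 counts. The start given by RefSeq equals that of GENCODE, and the 300 bases around it, shown because the host gave almost no reads, hold 4 CpG dinucleotides. The capitals mark 2 matches to GGGCGG, the GC box bound by Sp1 family factors, searched on both strands (chr11:78394235-78394534, plus strand, RefSeq promoter table, GRCm38.p6).
Slc13a2os: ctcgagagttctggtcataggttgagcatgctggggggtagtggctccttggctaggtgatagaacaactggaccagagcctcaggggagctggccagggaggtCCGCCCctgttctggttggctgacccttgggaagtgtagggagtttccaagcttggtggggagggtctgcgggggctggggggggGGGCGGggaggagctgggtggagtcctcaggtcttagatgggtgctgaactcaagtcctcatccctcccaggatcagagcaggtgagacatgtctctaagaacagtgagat

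Rab10os rose next to a host that was not called. Rab10 is a small GTPase of vesicle transport. Rab10os (chr12:3235504-3250377, plus strand) meets the host (chr12:3247428-3309969, minus strand) tail to tail, with 143 of its 6144 exonic bases opposite to exons of Rab10. Its counts were 71, 55, 140 and 136, all whole, and higher in both knockdown libraries. It went from 3.21 ± 0.614 to 7.08 ± 0.0900 CPM (SD, n = 2; edgeR log2 fold change 1.14, SE 0.245, adjusted p = 0.0259). It was not called by limma on log2(TPM + 1) (0.90, adjusted p = 0.117). Rab10 had 2190, 2059, 2264 and 2766 counts, also higher in both knockdown libraries but not called (log2 fold change 0.26, SE 0.147, adjusted p = 0.356). Within each library the log2 ratio of transcript to host was -4.94, -5.21, -4.01 and -4.34, so that the groups do not overlap (an exact permutation test of 2 against 2 libraries cannot go below p = 0.333). The nearest gene starting on the other strand, Gm45925 at 5613 bp, had 0, 0, 1 and 0 counts. RefSeq places the start of Rab10os inside the GENCODE gene, and the 300 bases around that start hold 39 CpG dinucleotides, against 4 in the window of Slc13a2os and a median of 7 in 32851 promoter windows of 27025 genes. Capitals mark 2 matches to GGGCGG and 1 to CCAAT, the box bound by NF-Y, each searched on both strands. The CCAAT match shares letters with the first GGGCGG match (chr12:3235541-3235840, plus strand, RefSeq, GRCm38.p6).
Rab10os: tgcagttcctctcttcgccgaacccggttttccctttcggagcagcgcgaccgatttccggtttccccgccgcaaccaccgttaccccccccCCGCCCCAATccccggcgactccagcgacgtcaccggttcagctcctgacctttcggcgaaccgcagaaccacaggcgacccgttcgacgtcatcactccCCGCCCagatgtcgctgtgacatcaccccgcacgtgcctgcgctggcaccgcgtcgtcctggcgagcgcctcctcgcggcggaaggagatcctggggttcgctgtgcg

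Dnah2os rose inside a gene that is nearly silent in these cells. Dnah2 encodes an axonemal dynein heavy chain, part of the motor of motile cilia. Dnah2os (chr11:69448548-69453676, plus strand) lies inside the host (chr11:69420809-69549110, minus strand), with 312 of its 859 exonic bases (36.3%) opposite to exons. It had 12, 17, 64 and 47 counts, all whole, and went from 0.737 ± 0.171 to 2.85 ± 0.595 CPM (SD, n = 2; edgeR log2 fold change 1.94, SE 0.365, adjusted p = 0.0143). Both knockdown libraries exceeded both controls, and the ratio of summed counts was 3.82 (exact 95% interval 2.52 to 5.97, counting error only). The host had 1, 4, 3 and 1 counts and was not tested. Its nearest opposite start, that of the histone demethylase gene Kdm6b, lies 34873 bp away (487, 786, 651 and 415 counts, log2 fold change -0.24, adjusted p = 0.644).

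**Figure D3:**
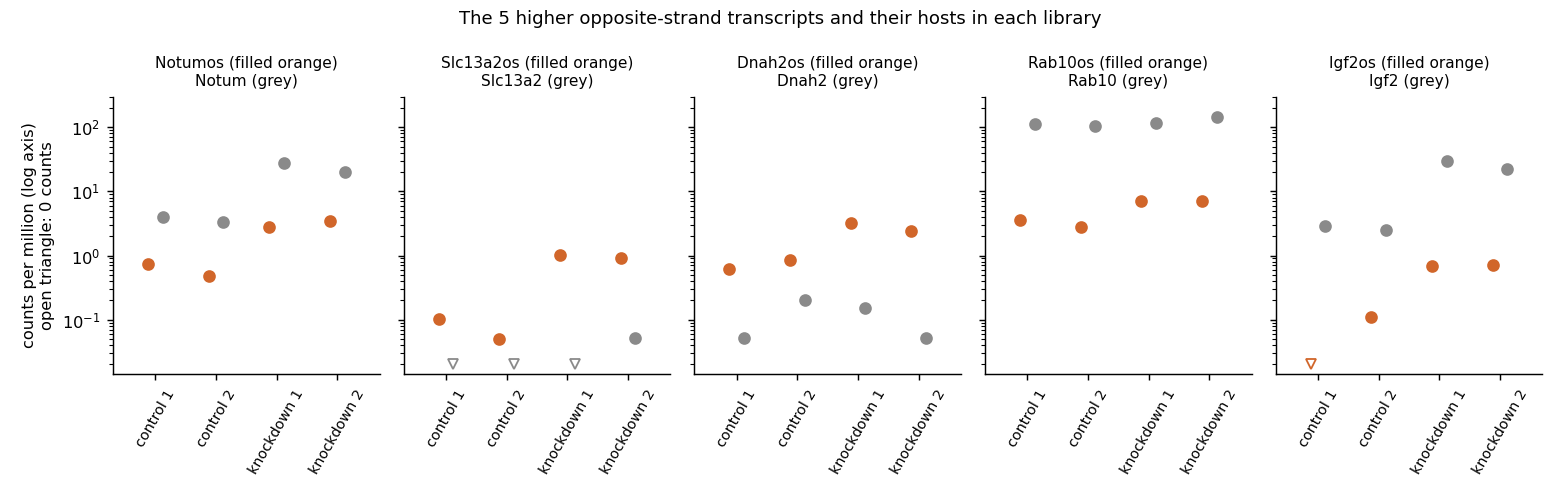
CPM (log axis) of the 5 called opposite-strand transcripts (orange) and their hosts (grey) in each of the 4 libraries, 1 panel per pair; open triangles mark 0 counts. In every panel both knockdown values of the transcript lie above both control values. The hosts Notum, Igf2 and Rab10 (the last not called) are separated as well, while Slc13a2 and Dnah2 lie near 0.

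None of the 5 called transcripts starts within 1000 bp of the start of its host. Of the 40 tested, 16 start that close, and 0 of these were called by edgeR, DESeq2 or limma. With 4.20% of all genes tested called higher and 1.76% lower, 0 of 16 is near the background. In edgeR 3 of the 16 had an unadjusted p under 0.05, all higher, without a count over all genes to set beside them. In the promoter windows as a group, matched by symbol, RefSeq held entries for 27 of the tested transcripts, with a median of 15 CpG, and for 179 of all opposite-strand symbols, with a median of 6. The 203 hosts with an entry had a median of 18. TATAAA was found in 3.45% of the 29 tested windows, 7.94% of all opposite-strand windows, 6.55% of host windows and 13.6% of all windows. In the same order CCAAT was found in 31%, 32.7%, 34.1% and 37.4%, and GGGCGG in 58.6%, 28.5%, 50.7% and 35.7%. The windows of the hosts of tested transcripts held GGGCGG in 56.5%.

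Of the 8 tested divergent transcripts edgeR called 0, and DESeq2 and limma called 0. At an unadjusted p under 0.05 in edgeR 1 was higher and 1 lower, without a count over all genes to set beside them. For 8 members, 0 called is near the background of 4.20% and 1.76%. The most abundant by CPM was Brip1os, an RNA of 6498 exonic bases that starts 177 bp from Brip1, a DNA helicase that works with BRCA1 in DNA repair. It stood at 45.5, 49.3, 55.8 and 49.6 CPM (log2 fold change 0.15, SE 0.145, adjusted p = 0.600). Per length it exceeded its host, at 13.72, 15.39, 16.43 and 14.52 TPM against 2.6, 3.15, 1.95 and 2.32 TPM for Brip1 (log2 fold change 0.02), and neither was called. Brip1os counts were fractional in all libraries, and its exons overlap those of Ints2 (512 bp) and Med13 (800 bp) on the other strand. The window holds the starts of both genes, and the 178 bases in capitals run from the first base of Brip1os to that of Brip1, shown as a promoter from which both genes start (chr11:86201144-86201443, minus strand, so read in the direction of Brip1; RefSeq, GRCm38.p6; 21 CpG, 3 matches to CCAAT and 3 to GGGCGG on either strand).
Brip1: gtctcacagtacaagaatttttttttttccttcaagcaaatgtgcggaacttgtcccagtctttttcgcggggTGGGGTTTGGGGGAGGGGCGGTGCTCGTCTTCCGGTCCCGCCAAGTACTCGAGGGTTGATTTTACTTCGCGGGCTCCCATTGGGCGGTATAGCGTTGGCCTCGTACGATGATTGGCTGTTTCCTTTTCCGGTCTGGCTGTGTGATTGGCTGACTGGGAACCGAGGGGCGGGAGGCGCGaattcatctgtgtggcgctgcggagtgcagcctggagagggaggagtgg

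Fam120aos, 270 bp from the start of Fam120a, stood at 3.18, 2.88, 4.95 and 5.78 CPM, and its host, which encodes an RNA-binding protein, at 392, 367, 426 and 389 CPM. Its groups do not overlap, but it was not called (log2 fold change 0.82, adjusted p = 0.0906). Tmem147os, 39 bp from Tmem147, a membrane protein of the endoplasmic reticulum, stood at 0.308, 0.656, 0.561 and 0.464 CPM against 76.8, 63.6, 96.4 and 91.5 CPM for the host. Another row of the same symbol had 2.45, 0, 1.43 and 0 counts and was not tested. Ccpg1os, 47 bp from Ccpg1, a receptor for autophagy of the endoplasmic reticulum, stood at 1.49, 2.07, 2.09 and 1.60 CPM and Ccpg1 at 7.48, 7.96, 8.05 and 5.49 CPM. In the tested row of Tmem147os and in Ccpg1os the groups overlap. Cep83os, 78 bp from the centriole gene Cep83, had 1.49, 1.11, 1.32 and 3.04 CPM, with knockdown 2 alone above the rest, and the host 12.4, 19.4, 12.3 and 11.2 CPM. The log2 fold changes were 0.75 (SE 0.434, adjusted p = 0.360) and -0.44 (SE 0.234, adjusted p = 0.319), a difference of 1.18 with neither called. The values rest on single libraries: Cep83os was at 0.03 without knockdown 2, and Cep83 at -0.08 without control 2 and called lower without control 1 (-0.72, adjusted p = 0.0313). Map2k3os, 166 bp from Map2k3, a kinase that activates p38, stood at 0.821, 2.02, 1.17 and 2.68 CPM and the host at 171, 119, 164 and 184 CPM. Both libraries numbered 2 exceeded both numbered 1 in Map2k3os, so its groups overlap. Chrna1os stood at 0.308, 0.656, 0.306 and 0.567 CPM, while Chrna1, a subunit of the muscle acetylcholine receptor, had 0.065 TPM on average and was not tested.

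Among the transcripts that overlap the start of their host, Wdr83os was the most abundant of all 40 by CPM. It is annotated as protein-coding, and the protein is known as Asterix, a subunit of a chaperone complex of the endoplasmic reticulum membrane. It stood at 54.2, 46.2, 59.2 and 54.6 CPM (log2 fold change 0.18, SE 0.148, adjusted p = 0.535). Wdr83 stood at 7.53, 9.10, 6.97 and 6.14 CPM (-0.34, SE 0.219, adjusted p = 0.411), and neither was called. The CPM groups did not overlap in either, with Wdr83os higher and Wdr83 lower with the knockdown. For Wdr83os the gap was narrow (control 1 at 54.2 and knockdown 2 at 54.62 CPM). Counts of both were fractional in all libraries with whole sums (1203, 1097, 1298 and 1178). Dlx4os stood at 12.9, 9.89, 13.0 and 11.8 CPM (log2 fold change 0.12, SE 0.206, adjusted p = 0.786). Its host, the homeobox gene Dlx4, stood at 14.8, 15.5, 16.2 and 11.9 CPM. Per length they were nearly level, with means of 10.6 and 10.1 TPM. Erich2os stood at 1.95, 2.88, 4.39 and 3.61 CPM, with separated groups and no call (log2 fold change 0.73, adjusted p = 0.190), and Erich2 at 4.16, 4.49, 6.12 and 4.85 CPM. Tbx3os1 lay far below its host Tbx3, a T-box transcription factor (means of 1.33 and 23.0 TPM). It had 6, 7, 18 and 14 counts against 1772, 1347, 2036 and 1379 for the host, with log2 fold changes of 1.29 (SE 0.490, adjusted p = 0.164) and 0.14 (SE 0.204, adjusted p = 0.749). Its groups do not overlap in CPM, but its TPM values were 1.82, 1.06, 1.51 and 0.94 TPM, and the estimated effective length went from 212.7 and 433 bp in the control to 746.4 and 937.5 bp in the knockdown. Its direction thus differs between the scales. N4bp2os had the widest gap to its host, 1.62 on the log2 scale, but on few reads. Its counts were 0, 10, 11.3 and 8, so that control 1 held none and the groups overlap, against 294, 313, 197.7 and 173 for N4bp2. The log2 fold changes were 0.92 (SE 0.852, adjusted p = 0.587) and -0.70 (SE 0.188, adjusted p = 0.0615), and without control 1 that of the transcript was -0.05. Ino80dos stood at 0.802, 0.862, 1.55 and 1.15 CPM, with separated groups, and Ino80d, a subunit of the INO80 chromatin remodeller, at 58.3, 55.2, 72.5 and 85.7 CPM. Both had fold changes above 0 (0.66 and 0.48) and neither was called. Gad1os stood at 1.80, 1.41, 2.60 and 3.15 CPM, also separated and not called (log2 fold change 0.84, adjusted p = 0.149). Its host Gad1, the enzyme that makes the transmitter GABA, had 0.005 TPM on average.

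The other transcripts at host starts had overlapping groups. Sp3os stood at 2.31, 3.03, 2.86 and 1.96 CPM beside Sp3, a transcription factor that binds GC boxes, at 88.2, 81.0, 83.9 and 100.2 CPM. Zfp335os stood at 4.58, 2.07, 1.84 and 2.89 CPM beside the zinc finger gene Zfp335 at 39.9, 42.0, 36.1 and 28.3 CPM. Dhrs13os stood at 2.97, 1.13, 1.67 and 3.79 CPM beside Dhrs13, a gene of the short-chain dehydrogenase family, at 31.2, 25.4, 28.5 and 35.5 CPM. Per length each of these hosts exceeded its transcript, and the 2 control libraries of Zfp335os and of Dhrs13os lay far apart. Arhgap27os1 stood at 2.89, 1.98, 1.90 and 2.60 CPM beside Arhgap27, a GTPase-activating protein, at 74.1, 58.8, 69.3 and 62.9 CPM. Its exons also lie opposite to those of Plekhm1 (334 bp), which rose, with 918.48, 871.93, 1376.96 and 1616.71 counts (log2 fold change 0.75, adjusted p = 0.0177). The log2 fold change of the transcript itself was -0.12, close to 0. Phtf1os stood at 2.37, 0.862, 2.05 and 1.61 CPM beside Phtf1 at 30.7, 24.3, 28.0 and 30.5 CPM. Zbtb11os1 stood at 1.21, 1.16, 0.930 and 1.28 CPM beside the zinc finger gene Zbtb11 at 14.7, 16.8, 17.4 and 19.6 CPM. Lppos stood at 0.821, 1.01, 0.918 and 0.774 CPM beside Lpp, a protein of focal adhesions, at 58.1, 65.4, 64.7 and 78.1 CPM. The fold changes of these last 3 transcripts lie within their standard errors of 0.

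The other 3 transcripts that overlap the end of their host were not called. Faddos stood at 0.709, 0.319, 0.649 and 1.10 CPM and Fadd, the adaptor of death receptors, at 28.2, 27.9, 27.1 and 27.2 CPM. Ccdc142os had 0.632, 0.485, 0.357 and 0.155 CPM, lower in both knockdown libraries, with a log2 fold change of -1.11 (SE 0.586, adjusted p = 0.316), and Ccdc142 had 0.595, 0.549, 0.398 and 0.480 CPM (-0.42, SE 0.485, adjusted p = 0.678). In TPM the transcript stood at 2.45, 1.85, 0.7 and 0.39 TPM, and limma on log2(TPM + 1) called it lower (adjusted p = 0.0394), while its effective length went from 323 and 342.2 bp to 627 and 480.3 bp. Cebpzos, a protein-coding transcript, stood at 7.64, 7.06, 6.22 and 7.38 CPM and Cebpz at 73.4, 86.5, 63.9 and 58.0 CPM, with log2 fold changes of -0.11 and -0.39.

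Of the transcripts inside their host, Ptprtos had the highest level of all 40 per length. It stood at 36.0, 32.6, 43.4 and 40.0 CPM and at 122.18, 110.76, 145.08 and 132.08 TPM, against 1.51, 2.11, 1.65 and 2.97 TPM for Ptprt, a receptor tyrosine phosphatase. The knockdown values were above the controls without a call (log2 fold change 0.28, SE 0.150, adjusted p = 0.321), and the start of Ptprtos lies 270334 bp from that of Ptprt. Rab26os ranked high by TPM with 99.38, 57.79, 140.26 and 119.98 TPM, on an effective length of only 59.13 to 70.59 bp, and stood at 4.98, 3.13, 6.79 and 5.83 CPM (log2 fold change 0.64, adjusted p = 0.216). Its exons hold the small nucleolar RNA gene Snord60, listed at 0 counts, and Rab26, a small GTPase, had 0.328 TPM on average. Kank4os stood at 9.80, 9.03, 11.6 and 11.2 CPM, while Kank4 was listed at 0 in all libraries. Rptoros had 1.95, 1.41, 2.14 and 3.56 CPM, above the controls in both knockdown libraries, and Rptor, the raptor subunit of the mTORC1 kinase complex, 48.8, 50.3, 40.6 and 41.6 CPM. Rap1gapos had 1.80, 2.27, 1.17 and 2.06 CPM and Rap1gap, which turns off the GTPase Rap1, 39.2, 38.6, 48.7 and 48.1 CPM. The log2 fold changes of this last pair had opposite signs, -0.33 (SE 0.360, adjusted p = 0.653) and 0.31 (SE 0.141, adjusted p = 0.237), with neither called. Bcas3os2 had 0.154, 0.504, 0.663 and 0.670 CPM and Bcas3 14.8, 13.3, 14.3 and 15.6 CPM. Hk1os had 0.308, 0.858, 0.918 and 0.670 CPM and the glycolytic enzyme gene Hk1 161, 146, 163 and 108 CPM. The groups overlap in Hk1os and are separated in Bcas3os2, and neither was called.

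Of the 3 convergent transcripts edgeR called 0, with 0 at an unadjusted p under 0.05, and DESeq2 and limma called 0, which for 3 members is near the background of 4.20% and 1.76%. Slc7a6os, which encodes a protein related to a nuclear import factor of RNA polymerase II, stood at 34.1, 38.3, 25.6 and 30.6 CPM, lower in both knockdown libraries (log2 fold change -0.36, SE 0.164, adjusted p = 0.239). Its host Slc7a6, an amino acid transporter, stood at 131, 114, 115 and 139 CPM, and per length the means were 39.8 and 49.7 TPM. Epb41l4aos stood at 9.49, 8.12, 7.80 and 6.86 CPM, also with separated groups and lower with the knockdown (log2 fold change -0.26, adjusted p = 0.524), and its host was listed at 0 TPM. Brd3os stood at 1.33, 1.92, 1.99 and 1.75 CPM and Brd3, a bromodomain protein that reads acetylated histones, at 62.9, 57.8, 63.6 and 46.1 CPM.

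Per length, the transcript exceeded its host in 15 of the 40 pairs, 8 with a tested host and 7 with a host too low to test. Over the 33 pairs with a tested host the median level of the transcript was 14.9% of that of the host. The highest mean levels were those of Ptprtos (127.5 TPM), Wdr83os (104.8 TPM), Rab26os (104.4 TPM), Epb41l4aos (62.5 TPM) and Slc7a6os (39.8 TPM). None of these 5 was called, and the 5 called transcripts had means between 0.143 TPM (Igf2os) and 6.24 TPM (Rab10os).

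**Figure D4:**
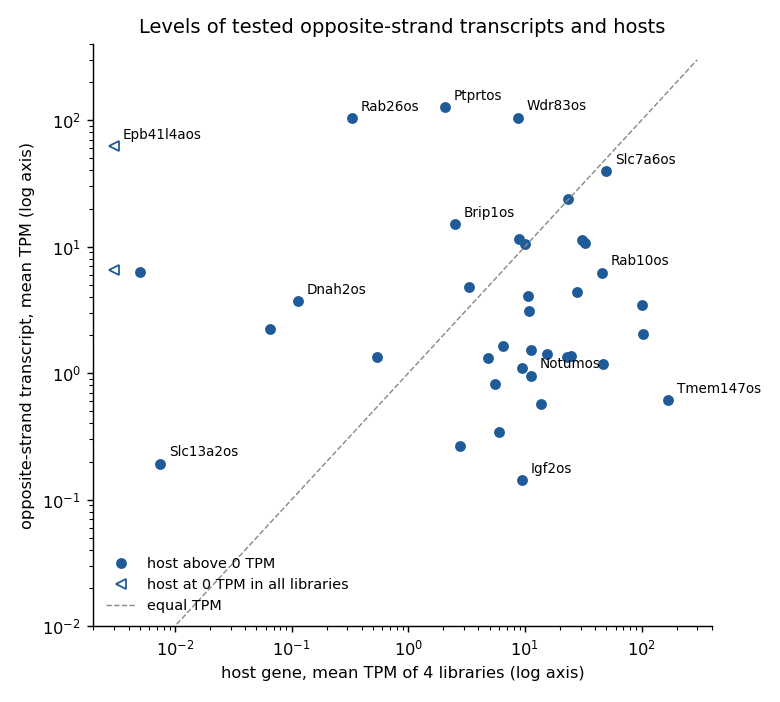
Mean TPM over the 4 libraries of 39 of the 40 tested opposite-strand transcripts (vertical, log axis) against that of their hosts (horizontal, log axis); open triangles at the left edge are hosts at 0 TPM and the dashed line marks equal levels. Points above the line, 15 of 39, are transcripts that exceed their host, with Ptprtos, Wdr83os and Rab26os above 100 TPM.

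Across the 33 pairs with both members tested, 18 had fold changes of the same sign and in 2, Notum and Igf2, both were called. The same sign was seen in 12 of 21 pairs with exon overlap and 6 of 12 without. In pairs with whole transcript counts it was 9 of 19, and in those with fractional counts 9 of 14. By arrangement it was 9 of 15 pairs overlapping at starts, 5 of 7 divergent, 3 of 4 overlapping at ends, 1 of 5 inside the host and 0 of 2 convergent. These counts are small, and their differences were not tested. The absolute difference of the 2 log2 fold changes had a median of 0.347 in pairs with exon overlap and 0.49 in pairs without.

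**Figure D5:**
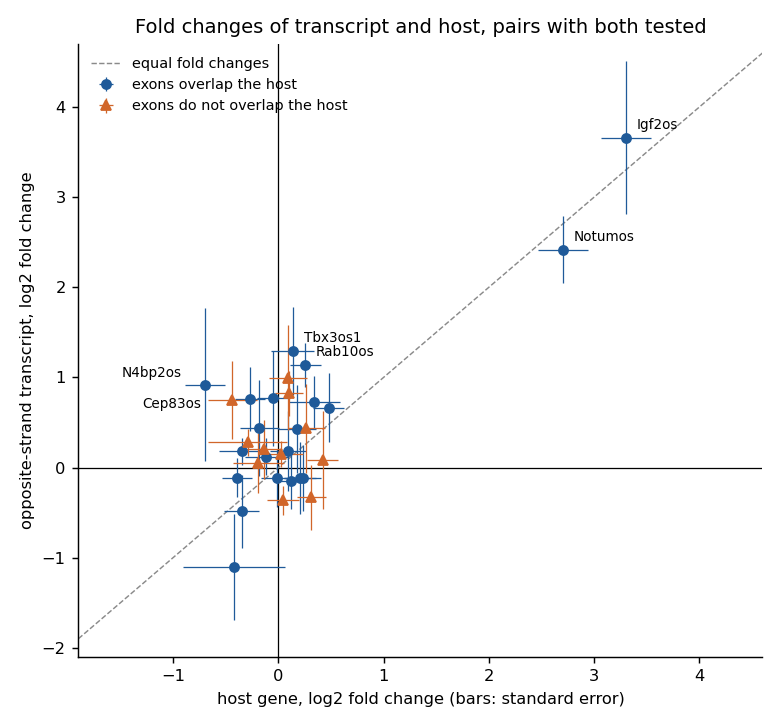
Log2 fold change of the opposite-strand transcript (vertical) against that of its host (horizontal), with standard errors, for 32 of the 33 pairs with both tested; circles are pairs with overlapping exons, triangles pairs without, and the dashed line marks equal changes. Notumos and Igf2os lie near the line at 2.42 and 3.66, while Rab10os, Tbx3os1 and N4bp2os lie above hosts with fold changes of 0.26, 0.14 and -0.70.

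Seen from the hosts, 143 of the 253 were tested, of which 3 rose (2.1%, against 4.20% of all genes tested) and 5 fell (3.5%, against 1.76%), with a median log2 fold change of -0.068. The CPM groups did not overlap in 26 hosts with the knockdown higher (18.2%, against 26.4% of all genes tested) and in 45 with it lower (31.5%, against 25.2%). Besides Notum and Igf2, Bach2 rose. Bach2, a transcriptional repressor of lymphocytes, had 2, 7, 28 and 32 counts (log2 fold change 2.72, SE 0.524, adjusted p = 0.0163). The fold change of Bach2 was 2.10 without control 1 and 3.82 without control 2, and limma on log2(TPM + 1) did not call it (0.52, adjusted p = 0.225). Its transcript Bach2os, inside the host, had 0, 1, 2 and 1 counts and was not tested. The hosts that fell were Lrp8, Peak1, Itpr3, Hnf4a and Egfr. Lrp8, a receptor for reelin and apolipoprotein E, had 47.8, 53.5, 28.1 and 26.5 CPM (log2 fold change -0.89, SE 0.151, adjusted p = 0.00905). It is the only called host with several opposite-strand rows: Lrp8os3, divergent at 197 bp, had 3, 2, 2 and 4 counts, Lrp8os2 had 0, 1, 0 and 0, and Lrp8os1 had none. Hnf4a, a nuclear receptor that sustains hepatocyte gene expression, had 231, 234, 163 and 144 CPM (-0.60, SE 0.132, adjusted p = 0.0302). Hnf4aos had 2, 2, 3 and 4 counts, so host and transcript stood on different sides, on too few reads to test. Egfr, the receptor of epidermal growth factor, had 278, 294, 203 and 196 CPM (-0.52, SE 0.127, adjusted p = 0.0444), and Egfros 5, 4, 1 and 3 counts, lower on both. Itpr3, a calcium channel opened by inositol trisphosphate, had 179, 184, 129 and 86.2 CPM (-0.75, SE 0.183, adjusted p = 0.0428), and the kinase-like cytoskeletal protein gene Peak1 had 53.9, 67.6, 39.8 and 25.9 CPM (-0.89, SE 0.212, adjusted p = 0.0404). No read was assigned to Itpr3os or Peak1os. The call of Egfr is close to the threshold and was lost with the replicate number as a block (adjusted p = 0.0796) and without control 2, knockdown 1 or knockdown 2 (0.0891, 0.0735 and 0.166). Without knockdown 2 the calls of Hnf4a, Itpr3 and Peak1 were lost as well (0.141, 0.164 and 0.0899). With limma on log2(TPM + 1) the hosts Notum, Igf2 and Hnf4a alone were called, and Lrp8, Egfr, Itpr3 and Peak1 had adjusted p-values of 0.0776, 0.0915, 0.109 and 0.134.

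The remaining 256 transcripts were not tested. Of the 97 with reads, 67 summed to fewer than 10 counts over the 4 libraries and 30 to between 10.6 and 36. Among these 30 the CPM of the groups did not overlap in 11, with the knockdown higher in 10 (33.3%, against 26.4% of all genes tested) and lower in 1, Egfros (3.33%, against 25.2%). Some of those counted as higher were separated by library scaling alone, since their counts tie or cross between the groups. These were Man2c1os (3, 4.03, 4 and 4 counts), Rab11fip4os1 (4, 9, 9 and 14), Tmem51os1 (1, 3, 4 and 3) and Tspan2os (3, 1, 6 and 3). The genes tested had passed a filter that these 30 failed, so the shares are not like for like. Fold changes of the 30 are not given, since at this depth 1 CPM is about 19.5 reads and a difference of a few reads is not detectable.

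The deposited files also hold 60983 rows named by position in the genome instead of by gene. Of the 40 tested transcripts 3 have such a locus within 5000 bp (Brip1os, Gad1os and Rab10os), and around Brip1os alone any of them reached 3 counts. The largest, at chr11:86207273-86208139, had 27.94, 65.27, 59.86 and 35.78 counts and was not called (adjusted p = 0.92). Symbols ending in as, as1 or as2, a related way of naming antisense genes, matched 3 hosts on the same chromosome, of which 1 was tested and 0 were called.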

How the data were processed

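Total RNA of Hepa1-6 cells was sequenced in 4 libraries, grouped by their titles. The submitters' processing notes name FastQC, STAR, RSEM and DESeq2 with the builds GRCm38 and mm10, without versions or roles. The deposited files give, per the file headers, RSEM's expected count, TPM and FPKM for each gene. The deposited expected counts are estimates that divide shared reads, the deposited TPM values are scaled by effective length, and the deposited FPKM values were not used. The annotation and the handling of strand: not given in the sources used here.

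Positions come from GENCODE M21 (54723 of 54838 identifiers matched without version), and promoters from RefSeq (GRCm38.p6). Expected counts were rounded and tested with edgeR 4.0.16 in R 4.3.3 (filterByExpr, TMM, quasi-likelihood F-test, group alone, Benjamini-Hochberg over 12821 genes, threshold 0.05), after a test on simulated counts. Its spread rested on 2 residual and 7.52 prior degrees of freedom. SDs are over 2 libraries, and SEs come from the F statistic. Log2 ratios used a prior count of 0.5. Alternatives were DESeq2 1.42.0, limma 3.58.1 on log2(TPM + 1), which understates changes of low genes, other size factors and filters, all rows in one fit, replicate blocks and leaving out each library. Named are all tested transcripts except 1, which is not reported here, called hosts whose transcript has a read, and the largest differences within pairs. Full statistics are given for called genes, the most abundant transcripts and those extreme pairs. Itpr3 and Peak1, without transcript reads, were added after their values were seen. Members, lists and tests were chosen with earlier results of these data known.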

Additional observations from a re-analysis of the deposited data

How the results depend on the processing

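The 5 transcript calls held with DESeq2's size factors, with all rows in one fit, with the replicate number as a block (5 transcripts, 7 hosts, Egfr lost) and without each library in turn (5 to 7 transcripts, always including these 5). Slc13a2os and Igf2os passed the filter through the knockdown libraries alone. That their calls held under the same filter is therefore no separate support. Replicate numbers do not pair the samples (correlation of deviations -0.183). With the numbers crossed, an alternative added after the data were seen, 7 transcripts, 25 hosts and 2339 genes were called. Without a filter on low counts edgeR called 0 transcripts, 0 hosts and 0 of 21511 genes, and 63 of 128 pairs had the same sign. In that fit 18 of 135 transcripts and 39 of 200 hosts had an unadjusted p under 0.05, with no share over all genes beside them. A filter of 1 CPM left 3 transcripts called (Slc13a2os and Igf2os were not tested), and limma on log2(TPM + 1) called 3 transcripts and 3 hosts, keeping Notumos and Dnah2os. DESeq2 called 4 transcripts and 10 hosts. The transcripts added included Rab26os without control 1 and N4bp2os without control 2. Leaving out a library gave 5 to 19 hosts, 5 without knockdown 2 and 19 without control 1. Fold changes of uncalled genes that changed sign then ranged from -0.058 to 0.322 (Dlx4os), -0.052 to 6.266 (N4bp2os), -0.788 to 0.018 (Rap1gapos) and -0.162 to 0.389 (Tbx3), and Tbx3os1 was at -0.127 on log2(TPM + 1). The causes were not tested. With a library left out, the lone library of its group is assumed to vary like the other group. Depth limits the 97 transcripts with too few reads to test.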
